A study of Mus musculus with 9 samples.

Results

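The DEAD and DEAH box RNA helicase genes were followed as mRNAs crosslinked to Chtop, an mRNA export protein. Members were chosen by symbol, as the genes named Ddx or Dhx with a number and at most 1 further letter, and 1 gene of this pattern was set aside. The 2 families are named here by symbol alone, and Ddx11 among them is a DNA helicase. The rule found 40 genes, 26 Ddx (called DEAD box) and 14 Dhx (called DEAH box), of 22442 genes in the count tables. Only 11718 of these genes carried a symbol in the deposited tables, so further helicase genes may be among the unnamed ones. RNA was measured by iCLIP, in which ultraviolet light crosslinks RNA to protein in living cells and the RNA recovered with an antibody against that protein is sequenced.

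All 9 libraries came from N2a cells, a mouse neuroblastoma line, engineered as Flp-In rtTA lines. In 3 libraries the precipitated protein was FLAG-tagged Chtop encoded by a cDNA with exon 5, and in 3 it was FLAG-tagged Chtop encoded by a cDNA without exon 5. The other 3 were size-matched inputs, prepared from 2% of the lysate without the antibody step. One input (replicate 1) was from the line without exon 5, one (replicate 2) from the line with exon 5 and one (replicate 3) from a line expressing FLAG-GFP. Doxycycline at 2 µg/mL for 24 h induced the tagged protein, and cells were crosslinked with 0.15 J/cm2 of light at 254 nm. The tagged protein was expressed from a transgene, and the labels do not say that the cells' own Chtop was removed. The labels call the 3 replicates of a group independent biological samples handled on separate days.

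DEAD and DEAH box proteins use ATP to unwind RNA or to strip proteins from it. DEAD box enzymes separate short duplexes locally, whereas most DEAH box enzymes travel along a single strand. Between them they drive the steps of splicing, the assembly of ribosomes, the release of mRNPs at the nuclear pore, the start of translation and the decay of mRNA. Chtop binds RNA through its arginine and glycine rich region and acts with the TREX complex, whose own helicase it contacts. What was counted here was RNA of the helicase genes, not helicase protein.

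The 6 isoform libraries held between 624062 and 1844970 counts each and the inputs between 75504 and 173342. Levels are given as CPM, that is counts over each library's TMM-scaled size, and 3 counts amounted to 2.16 to 5.67 CPM in an isoform library but 16.8 to 21.7 CPM in an input. Replicates resembled each other less in the inputs, where the correlation of log CPM over genes was 0.279 to 0.377, than with exon 5 (0.716 to 0.727) or without exon 5 (0.756 to 0.823). Intervals of shares and of pooled ratios, and the floors, cover counting error only. Intervals of log2 fold changes came from the edgeR fit and take in the spread between replicates as well. Of 11 neuroblastoma markers 7 were found by symbol, and their summed level was 9331 to 13581 CPM with exon 5, 6547 to 8079 CPM without exon 5 and 2347 to 4788 CPM in the inputs. Of 8 markers of other cell types 3 were found, with summed levels of 10.1 to 42.3 CPM in the isoform libraries and 0 to 79.7 CPM in the inputs. Most of the marker sum was Map1b, at 11280.5 ± 2437 CPM with exon 5, 6912 ± 778 CPM without exon 5 and 3027 ± 1044 CPM in the inputs, whereas Stmn2 was lower with exon 5 (12.7 ± 12.5 CPM) than in the inputs (141 ± 131 CPM). The list's median log2 difference to input was -0.14 with exon 5 and 0.16 without exon 5. The part of these differences in the helicase results was not tested.

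Helicase mRNAs took a larger share of the counts in every Chtop library than in any input. The 40 genes held 0.679% (95% Clopper-Pearson interval 0.661 to 0.697), 0.591% (0.575 to 0.608) and 0.655% (0.641 to 0.669) of the counts in the libraries with exon 5. They held 0.734% (0.713 to 0.756), 0.655% (0.640 to 0.671) and 0.602% (0.591 to 0.613) without exon 5. In the inputs the share was 0.305% (0.273 to 0.339), 0.480% (0.448 to 0.514) and 0.474% (0.426 to 0.526). The isoform groups overlapped each other, with means of 0.642 ± 0.0451% with exon 5 and 0.664 ± 0.0665% without exon 5, against 0.420 ± 0.0997% in the inputs (SD, n = 3 each). Between 39 and 40 members had at least 1 count in each isoform library, whereas 20, 31 and 10 members did so in the shallower inputs.

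The paralogous pair Ddx5 and Ddx17, coregulators of splicing and transcription, made up much of the family's signal. Together they held 41.1, 39.2 and 42.8% of the members' counts with exon 5, 38.3, 37.9 and 34.3% without exon 5 and 38.4, 36.8 and 42.2% in the inputs. By mean CPM over the 6 isoform libraries Ddx5 ranked 41 and Ddx17 ranked 102 among all 22442 genes. Ddx42, a partner of the SF3B complex, followed at rank 407, then the little described Dhx57 at 505 and the nuclear helicase Dhx9 at 601. At the other end Ddx59 ranked 8562 and was too sparse to be tested, with 0, 5.87 and 20.2 CPM with exon 5, 26.4, 0 and 12.9 CPM without exon 5, and 0 in all inputs.

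Splicing helicases had the highest summed level of the roles. The 11 genes of this role reached a summed mean of 4820 CPM with exon 5, 5041 CPM without exon 5 and 1731 CPM in the inputs. Ddx5 (ENSMUSG00000020719.14; chromosome 11, 106780355 to 106789185 in GRCm38) had 2077, 1629 and 2270 CPM with exon 5, 2219, 1888 and 1659 CPM without exon 5, and 716, 1260 and 688 CPM in the inputs. All 6 isoform libraries lay above all 3 inputs, and the 2 isoforms overlapped. Ddx17 (ENSMUSG00000055065.7; chromosome 15, 79527696 to 79546764) had 1132, 1266 and 1313 CPM with exon 5, 1096, 1134 and 1075 CPM without exon 5, and 92.6, 454 and 406 CPM in the inputs. Its isoform libraries lay close together and its first input was far below the other two.

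Ddx46 helps the U2 snRNP recognise the branch site. Its mRNA (ENSMUSG00000021500.17; chromosome 13, 55634975 to 55681267) had 412, 271 and 405 CPM with exon 5, 383, 299 and 364 CPM without exon 5, and 0, 16.8 and 0 CPM in the inputs. It was thus high in all 6 isoform libraries and nearly absent from the inputs, where it had 3 counts in replicate 2 and 0 in the others. Ddx42 (chromosome 11, 106216887 to 106249140) had 321, 438 and 484 CPM with exon 5, 535, 619 and 790 CPM without exon 5, and 111, 297 and 0 CPM in the inputs. All 3 libraries without exon 5 were above all 3 with exon 5. Dhx35, a helicase of the late spliceosome, had 216, 192 and 149 CPM with exon 5, 278, 299 and 264 CPM without exon 5, and 0, 101 and 101 CPM in the inputs. The isoforms of Chtop did not overlap for it either, and both lay above the inputs.

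The DEAH enzymes that remodel the spliceosome at its successive steps had lower mean CPM than Ddx5, Ddx17, Ddx42 and Ddx46. Dhx16, needed for the first catalytic step, had 17.6, 201 and 78.9 CPM with exon 5, 164, 131 and 52.5 CPM without exon 5, and 0 in all 3 inputs. Its lowest library with exon 5 held 12 counts, so the group spread was nearly as large as its mean (99.1 ± 93.3 CPM). Dhx38, which acts at the second step, had 144, 58.7 and 216 CPM with exon 5, 285, 176 and 142 CPM without exon 5, and 0, 61.6 and 0 CPM in the inputs. Dhx15, which takes the spent spliceosome apart, had 181, 150 and 222 CPM with exon 5, 153, 106 and 313 CPM without exon 5, and 247, 157 and 0 CPM in the inputs. Its input replicate 1 exceeded 5 of the 6 isoform libraries. Dhx8, which releases the spliced mRNA, averaged 56.8 ± 13.1 CPM with exon 5, 53.9 ± 10.7 CPM without exon 5 and 94.5 ± 108 CPM in the inputs.

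Dhx9, a nuclear helicase of RNA duplexes and of RNA:DNA hybrids, had 313, 431 and 440 CPM with exon 5, 399, 392 and 387 CPM without exon 5, and 12.3, 67.2 and 0 CPM in the inputs (ENSMUSG00000042699.11; chromosome 1, 153455756 to 153487688). The isoforms overlapped and stood well above each input. Dhx57, whose function is little described, had 355, 497 and 409 CPM with exon 5, 589, 486 and 400 CPM without exon 5, and 0, 174 and 0 CPM in the inputs. Here too no input reached any isoform library. Dhx30, a helicase of mitochondrial ribosome assembly, averaged 143 ± 73.5 CPM with exon 5, 217 ± 75.2 CPM without exon 5 and 79.7 ± 103 CPM in the inputs. Dhx36, which unwinds G-quadruplexes, averaged 182 ± 91.1 CPM with exon 5, 191 ± 21.2 CPM without exon 5 and 128 ± 113 CPM in the inputs.

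Helicases of ribosome biogenesis made up 13 members, with a summed mean of 1039 CPM with exon 5, 921 CPM without exon 5 and 581 CPM in the inputs. The most abundant by CPM was the nucleolar helicase Ddx21, with 99.8, 172 and 231 CPM with exon 5, 244, 137 and 112 CPM without exon 5, and 80.3, 168 and 116 CPM in the inputs, which overlapped both isoforms. Ddx54, a nucleolar helicase of the large ribosomal subunit, had 70.5, 51.3 and 54.8 CPM with exon 5, 181, 61.6 and 19.4 CPM without exon 5, and 0 in all inputs. Some members of this role were carried by a single library. Ddx47 had 122, 0 and 10 counts with exon 5 and 4, 29 and 141 counts without exon 5, against 0, 0 and 2 in the inputs. Ddx24 had 57.2, 293 and 69.3 CPM with exon 5, 49.1, 95.5 and 61.1 CPM without exon 5, and 0, 28.0 and 0 CPM in the inputs.

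The 7 helicases of translation, mRNA decay and mRNPs summed to means of 747 CPM with exon 5, 688 CPM without exon 5 and 508 CPM in the inputs. Ddx3x, a translation initiation helicase, had 201, 131 and 74.1 CPM with exon 5, 71.8, 139 and 71.2 CPM without exon 5, and 92.6, 190 and 86.9 CPM in the inputs, so all 3 groups overlapped. Dhx34, which promotes nonsense-mediated decay, had 67.5, 64.5 and 51.9 CPM with exon 5, 37.8, 29.0 and 72.6 CPM without exon 5, and 0 in all inputs. Ddx20, the helicase of the SMN complex, had 25.0, 36.7 and 33.7 CPM with exon 5, 17.0, 41.1 and 75.5 CPM without exon 5, and 0 in all inputs. Every isoform library of the last pair of genes held counts and no input did. Of the 3 helicases of mRNA export, Ddx39a had 101, 49.9 and 6.73 CPM with exon 5, 94.4, 102 and 79.8 CPM without exon 5, and 0 in all inputs. Its libraries with exon 5 held 69, 34 and 7 counts. Ddx39a and its close paralog, Ddx19a and Ddx19b, Ddx5 and Ddx17, and Ddx21 and Ddx50 are pairs of similar sequence, so their counts are uncertain where reads could be split between them.

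**Figure D1:**
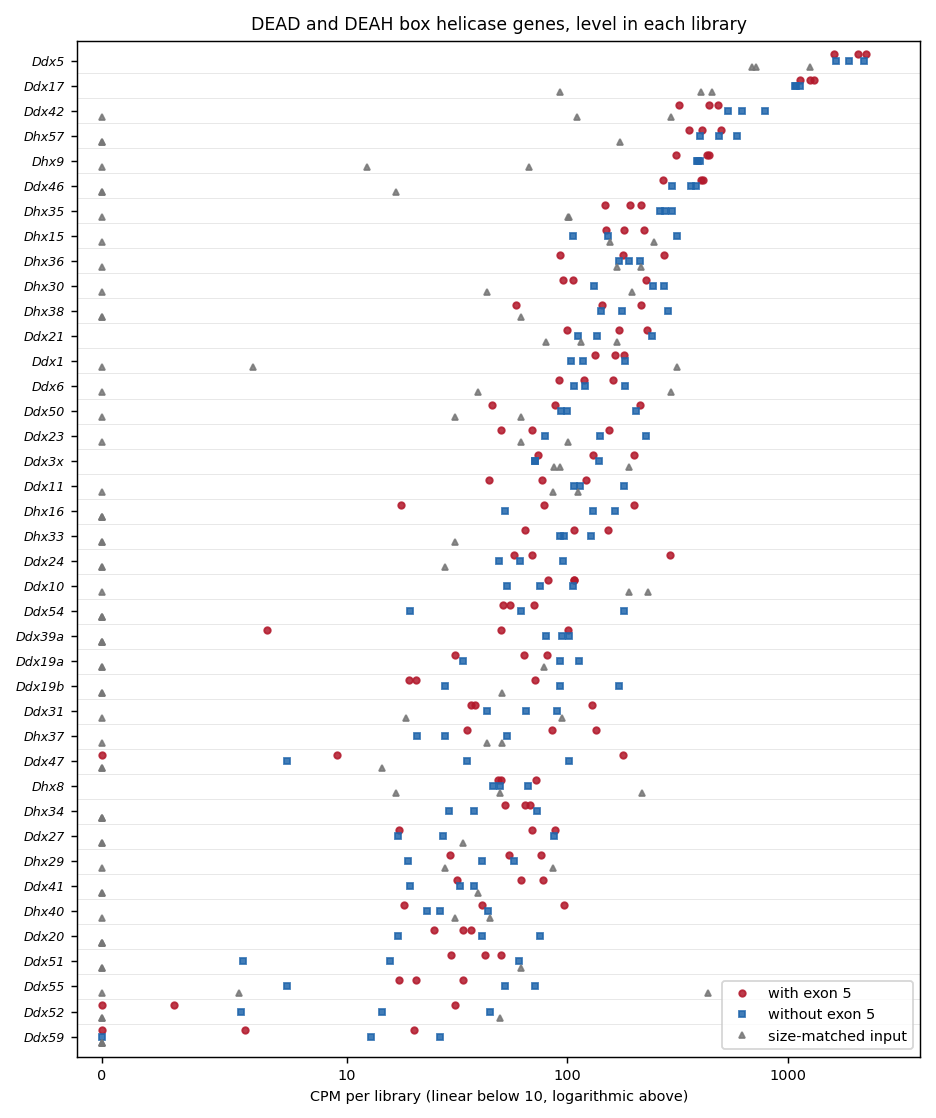
Level of each of the 40 helicase genes in each of the 9 libraries, 1 row per gene in order of mean level and 1 point per library (CPM axis linear below 10 and logarithmic above; red circles with exon 5, blue squares without exon 5, grey triangles input). Ddx5 lies furthest to the right, at 1629 to 2270 CPM in the isoform libraries, and many input points lie at 0.

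Comparison with the size-matched input asks which helicase mRNAs were recovered with Chtop beyond their presence in the lysate. Ddx46 and Dhx9 were higher with both isoforms. Dhx16, Ddx54, Ddx39a and Dhx34, which had no count in any input, were higher with both isoforms as well. Ddx17 was higher with the isoform with exon 5. No member was lower. The depth of the inputs limits how low a level could be measured there. Genes at 0 in every input passed the count filter only through the isoform libraries, so they could only come out higher. That was so for 5 of 39 members tested and for 14.6% of all genes tested. The same holds for a gene part at 0 in every input.

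With exon 5, 7 of 39 members tested (17.9%) were higher than input at an adjusted p under 0.05 (edgeR's quasi-likelihood F-test, Benjamini-Hochberg over all genes), where 8.31% of the 8342 genes tested were higher. None was lower, against 0.863% of all genes. Without exon 5, 6 of 39 (15.4%) were higher, against 8.12% of all genes, and none was lower, against 0.587%. Among the genes with a symbol the higher share was 10.1% with exon 5 and 9.90% without exon 5. At an unadjusted p under 0.05, 12 members (30.8%) with exon 5 and 13 (33.3%) without exon 5 were higher, against 25.4% and 25.2% of all genes, and none was lower. DESeq2's Wald test found 10 members (25.6%) higher with exon 5 and 9 (23.1%) without exon 5, against 15.7% and 15.1% of all genes. limma-voom found 5 (12.8%) higher with exon 5 and 8 (20.5%) without exon 5, against 10.1% and 11.6% of all genes. Whether the members' shares differ from these backgrounds was not tested. Both comparisons use the same 3 inputs and are therefore not independent of each other.

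The count of members past the threshold hung on single libraries and on the scaling. Leaving out any 1 of the 3 libraries with exon 5 left 1, 0 and 0 members called for that isoform (replicates 1, 2 and 3), and leaving out any library without exon 5 left 1. For the isoform without exon 5, leaving out its own replicates 1, 2 and 3 left 1, 1 and 0 members, and leaving out any library with exon 5 left 1. Leaving out input replicate 2, the deepest input, gave 17 and 18 members instead, while 2412 and 2355 of all genes passed. With library size alone or with DESeq2 size factors in place of TMM, Ddx46 was the only member called for either isoform. The same was so when the dependence of each library's ratio on gene length was removed and when the replicate number was fitted as a block. Fitting only the 2 groups compared left 0 members for each isoform. Leaving out input replicate 1 or 3 kept the count at 6 for the isoform with exon 5, and at 8 and 7 for the isoform without exon 5.

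For Ddx46 the log2 fold change was 5.86 ± 1.17 (SE; adjusted p = 0.0131) with exon 5 and 5.81 ± 1.17 (adjusted p = 0.0135) without exon 5, by edgeR's quasi-likelihood F-test. Because the inputs held only 3 counts, the ratio of pooled levels is given with its counting interval, 58.9 (95% interval 20.1 to 286) with exon 5 and 55.5 (18.9 to 270) without exon 5. Ddx46 stayed past the threshold under 17 of 20 alternative settings with exon 5 and 18 of 20 without exon 5. With exon 5 it was lost without replicate 2 (adjusted p = 0.0503) or replicate 3 (0.0569) of that isoform, and without exon 5 it was lost without replicate 3 of that isoform (0.0578). Without input replicate 2 its remaining inputs were at 0. The call was also lost for both when only the 2 groups compared were fitted (0.119 and 0.0800).

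For Dhx9 the log2 fold change was 3.84 ± 1.03 (SE; adjusted p = 0.0347) with exon 5 and 3.83 ± 1.03 (adjusted p = 0.0358) without exon 5, and it held under 8 of 20 alternatives for each isoform. Without input replicate 2 it was 5.93 with exon 5 and 5.95 without exon 5. Ddx17 was 1.96 ± 0.58 higher on the log2 scale with exon 5 (adjusted p = 0.0467), and its change of 1.80 ± 0.58 without exon 5 did not pass (adjusted p = 0.0624). Its change with exon 5 became -0.11 (adjusted p = 0.921) once the length trend was removed. Ddx5, the most abundant member by CPM, had a log2 difference of 1.16 ± 0.42 with exon 5 (95% interval 0.28 to 2.05) and an adjusted p of 0.0821, and 1.11 (adjusted p = 0.0958) without exon 5. Its isoform libraries all exceeded its inputs, but the difference did not pass the threshold for either isoform.

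For genes at 0 in every input a fold is a lower bound against 3 counts per input library. Dhx16 was at least 5.21-fold higher with exon 5 (adjusted p = 0.0329) and at least 6.09-fold higher without exon 5 (0.0323). Its bound with exon 5 was 2.54-fold without replicate 2, and replicate 1, at 17.6 CPM, lay within the range of the input floors. Ddx54 was at least 3.10-fold higher with exon 5 (0.0424) and 4.60-fold without exon 5 (0.0342), where leaving out replicate 1 lowered the bound to 2.13-fold. Ddx39a was at least 2.77-fold higher with exon 5 (0.0494) and 4.83-fold without exon 5 (0.0355). With exon 5 that bound was 1.49-fold without replicate 1 and 3.97-fold without replicate 3, the library with 7 counts. Dhx34 was at least 3.23-fold higher with exon 5 (0.0351) and 2.44-fold without exon 5 (0.0434). Ddx20, also at 0 in every input, did not pass for either isoform (adjusted p = 0.0645 with exon 5 and 0.0525 without exon 5). These 4 called genes passed under 5 to 8 of 19 or 20 alternatives, so their calls sit close to the threshold.

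Several abundant members did not pass although the difference was large. Dhx57 had a log2 difference of 2.83 with exon 5 (adjusted p = 0.130) and 3.05 without exon 5 (0.112). Ddx42 had 1.60 (0.291) with exon 5 and 2.24 (0.147) without exon 5, its 3 inputs ranging between 0 and 297 CPM. Dhx38 had 2.70 (0.180) with exon 5 and 3.23 (0.122) without exon 5. The lowest differences were those of Ddx55, a helicase of large subunit assembly, at -2.60 (0.289) with exon 5 and -1.73 (0.496) without exon 5. Ddx55 had 435 CPM in input replicate 3 against 0 and 5.60 CPM in the other inputs, so 1 library carried its value. Dhx8 (-0.72 with exon 5 and -0.80 without exon 5), Ddx10 (-0.51 and -0.84), Ddx52 (-0.56 and 0.39), Ddx3x (0.13 and -0.39) and Dhx29 (0.47 and 0.04), a helicase of ribosome scanning, completed the low end, and none of these differences passed.

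The log2 difference to input was positive for 35 of 39 members with each isoform. Most of all genes were positive too, since their median was 1.03. With library size alone 28 members were positive with exon 5 and 25 without exon 5, and with the length trend removed 17 and 21. In the main fit 22 with exon 5 and 23 without exon 5 lay above the median of all genes. The median over members was 1.16 with exon 5 and 1.45 without exon 5, against 1.03 over all genes for each isoform. With genes at 0 in every input set to their bound, the members' medians were 1.12 with exon 5 and 1.29 without exon 5, and those of all genes 0.70 and 0.72. Over 20 alternatives the members' median exceeded that of all genes by 0.11 to 0.46 with exon 5 and by 0.13 to 0.60 without exon 5. Its own sign depended on the scaling, since with the length trend removed it was -0.23 with exon 5 (all genes -0.47) and 0.05 without exon 5 (all genes -0.55). For 14 members with exon 5 the 3 isoform libraries all exceeded the 3 inputs, as they did for 33.1% of all genes, and for 16 without exon 5, against 35.8% of all genes.

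By role, 3 of 11 splicing helicases were higher with exon 5 (Ddx17, Ddx46 and Dhx16) and 2 of 11 without exon 5 (Ddx46 and Dhx16). Of the 13 ribosome biogenesis helicases 1 was higher with each isoform (Ddx54), of the 7 helicases of translation, decay and mRNPs 1 (Dhx34), and of the 3 export helicases 1 (Ddx39a). Dhx9 was the called member of the 2 genes placed with genome maintenance and other nuclear helicases, the other being Ddx11, a DNA helicase of cohesion. Median log2 differences were 1.60 with exon 5 and 1.80 without exon 5 for splicing, 1.42 and 0.77 for ribosome biogenesis, and 0.50 and 0.33 for translation, decay and mRNPs. DEAD box genes gave 4 of 25 calls with exon 5 and 3 of 25 without exon 5, and DEAH box genes 3 of 14 with each. Over all genes tested, 8.31% were higher with exon 5 and 8.12% without exon 5. Differences between the roles or the 2 families, or from these shares, were not tested.

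**Figure D2:**
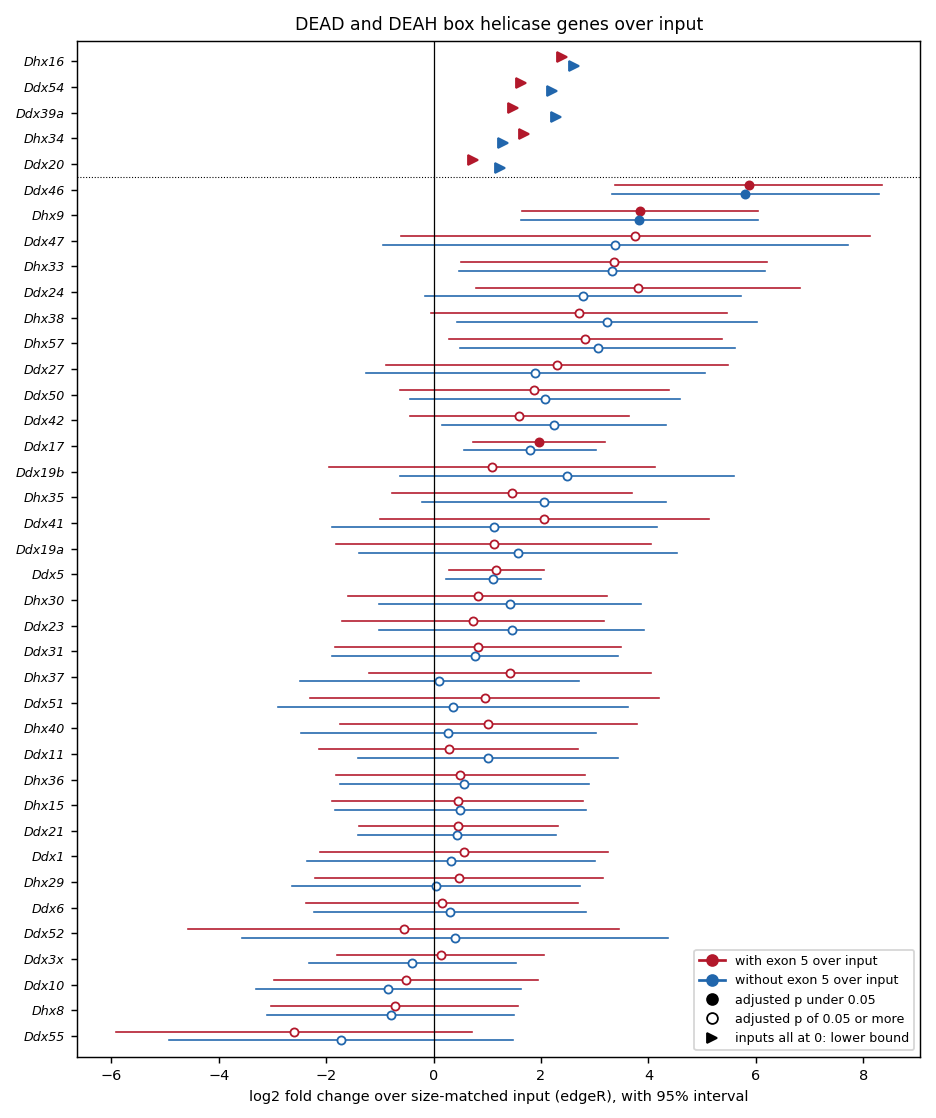
Log2 fold change over input of the 39 tested helicase genes, with exon 5 (red) and without exon 5 (blue), 1 row per gene, with 95% intervals; filled circles had an adjusted p under 0.05, and triangles in the top 5 rows are lower bounds of genes at 0 in all inputs. Ddx46 (5.86 with exon 5 and 5.81 without exon 5) is the highest of the measured ratios and Ddx55 (-2.60 and -1.73) the lowest.

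Most counts on helicase genes lay in coding sequence. Of the members' counts, 70.0, 72.4 and 77.3% fell in the CDS with exon 5, 67.3, 71.6 and 73.6% without exon 5, and 70.4, 59.5 and 43.6% in the inputs. Over all genes the CDS share was 66.1 to 68.8% in the isoform libraries and 45.4 to 47.6% in the inputs. Only 16 of the 40 members have a 5′ UTR in the deposited lengths, so the share of the 5′ UTR is not compared. A 3′ UTR is given for 37 of the 40. Ddx11, Ddx23 and Ddx46 have neither, so all their counts fall in the CDS and add to the members' CDS share. Coding sequences of the DEAH genes had a median of 3525 bases (2094 to 4192) and those of the DEAD genes 2036 bases (1292 to 3167). Over the 40 members the log2 level correlated with the log2 CDS length at a Pearson r of 0.227 and a Spearman rho of 0.294, a description over genes that share the same libraries.

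Per length, Ddx5 remained far above the rest. Its CDS density was 785 CPM per kb with exon 5, 741 CPM per kb without exon 5 and 283 CPM per kb in the inputs. Ddx17 followed with 353 CPM per kb with exon 5, 273 without exon 5 and 89.6 in the inputs. Ddx46 had 115 CPM per kb with exon 5, 110 without exon 5 and 1.77 in the inputs. Ddx42 lay below it with exon 5 (95.2 CPM per kb) but above it without exon 5 (141 CPM per kb), and had 40.7 CPM per kb in the inputs. Dhx57 (90.9 with, 103 without and 10.8 in the inputs) and Dhx9 (88.3 with, 81.2 without and 6.32 in the inputs) were close to Ddx42 with exon 5. The median member had 29.9 CPM per kb of CDS over the isoform libraries, and the range ran between 5.15 for Ddx52 and 763 for Ddx5. In the 3′ UTR the densest were Ddx17 (190 with exon 5, 199 without exon 5 and 49.4 CPM per kb in the inputs), Ddx42 (140 with, 243 without and 11.5 in the inputs), Ddx5 (182 with, 186 without and 122 in the inputs) and Dhx35 (90.7 with, 174 without and 30.9 in the inputs).

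Tested part by part, with both isoforms together against input, 9 of 38 members (23.7%) were higher in the CDS, where 17.6% of all genes and 20.0% of those with a symbol were higher (edgeR's quasi-likelihood F-test). Ddx46 had 281, 185 and 421 CDS counts with exon 5, 203, 247 and 506 without exon 5, and 0, 3 and 0 in the inputs, a log2 fold change of 5.66 ± 1.16 (SE; adjusted p = 0.0130). Ddx46 has no UTR in the deposited lengths, so these counts are its gene totals and do not locate the signal within the gene. The Ddx46 call held under all 14 alternatives run for the CDS. Those of Ddx24 and Dhx16 held under 9 and 8 of 14, and those of Dhx34 and Dhx9 under 5 of 14. Ddx19a and Ddx54 held under 3 of 14, and Ddx20 and Dhx37 under 2 of 13. Dhx9 had 187, 270 and 457 CDS counts with exon 5, 169, 301 and 470 without exon 5, and 2, 12 and 0 in the inputs (3.49 ± 1.04; adjusted p = 0.0360). The others were at 0 in every input and could only come out higher. The same was so for Ddx6, Ddx39a and Ddx55, which did not pass. The share of all genes with a CDS at 0 in every input is not given. The bounds of the called genes use the library sizes of the gene totals, whereas the adjusted p-values come from the CDS fit with its own totals. Ddx24 was at least 5.31-fold higher (adjusted p = 0.0226), though 200 of its 311 counts with exon 5 came from replicate 2, without which the bound was 3.29-fold. Dhx16 was at least 4.95-fold higher (0.0250), Dhx34 2.58-fold (0.0292), Dhx37, a helicase of the U3 snoRNP processome, 2.50-fold (0.0355), Ddx54 2.39-fold (0.0337), Ddx19a, which remodels mRNPs at the nuclear pore, 2.24-fold (0.0435) and Ddx20 1.83-fold (0.0416). Median log2 differences were 1.63 over members and 1.54 over all genes. Leaving out 1 library gave between 1 and 21 members, the highest without input replicate 2, 5 without input replicate 1, and 1 to 3 without any isoform library.

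In the 3′ UTR 5 of 22 members (22.7%) were higher, against 14.5% of all genes and 16.8% of those with a symbol. Ddx42 had 79, 114 and 132 counts there with exon 5, 81, 233 and 386 without exon 5, and 0, 6 and 0 in the inputs, a log2 fold change of 4.59 ± 1.27 (SE; adjusted p = 0.0262, edgeR). Dhx33, a DEAH helicase of ribosome biogenesis, had 51, 40 and 14 with exon 5, 28, 47 and 69 without exon 5, and 1, 0 and 0 in the inputs, a ratio of 23.1 (95% counting interval 4.11 to 918; adjusted p = 0.0382). Both genes thus had counts in every isoform library and next to none in the inputs. Ddx39a was at least 2.02-fold higher (0.0341), Dhx9 2.01-fold (0.0496) and Dhx38 1.28-fold (0.0496), all with 0 in the inputs. These genes, and the uncalled Ddx50 and Ddx54 with 0 there too, could only come out higher. Dhx9 also had 0 in replicate 3 with exon 5. These bounds and the ratio of Dhx33 use the library sizes of the gene totals, whereas the adjusted p-values come from the 3′ UTR fit with its own totals. Leaving out 1 library gave 0 to 10 members, with 10 without input replicate 2, 2 without input replicate 1 or 3, and 0 or 1 without any isoform library. With the library totals and factors of the gene totals none was called. In the 5′ UTR only Ddx42 could be tested, and its difference of 0.89 ± 1.55 did not pass (adjusted p = 0.683).

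How counts divided between the 2 parts varied from gene to gene. Among 36 members with at least 100 counts in the isoform libraries, the CDS took a median of 80.9% of CDS and 3′ UTR counts, where it made up a median of 69.2% of their length. The share exceeded the length share in 25 of 36 (69.4%), against 64.5% of 6627 genes. Ddx5 had 73.2% of these counts in a CDS that is 38.3% of the length, and 72.5 ± 5.39% with exon 5, 71.7 ± 5.59% without exon 5 and 60.3 ± 7.25% in the inputs (SD, n = 3 each). Its paralog Ddx17 had 53.5% in a CDS that is 42.0% of the length. Still further above their length share were Ddx1 of the tRNA ligase complex (87.7% of counts, 45.8% of length), Ddx19b (87.9% and 22.8%) and Ddx55 (97.0% and 41.4%). Below it were Dhx35 (39.4% and 65.9%), Ddx47 (50.0% and 78.7%), Ddx6, a helicase of P bodies and mRNA decay (15.7% and 25.4%), and Ddx42 (64.0% and 74.1%). The value of Ddx47 hung on replicate 1 with exon 5, since its 3′ UTR had 100, 0 and 7 counts with exon 5. Its CDS share was 24.0% with exon 5 (2 libraries with counts) but 85.5% without exon 5, above its length share. Dhx35 had 86, 51 and 61 CDS counts beside 61, 80 and 94 in the 3′ UTR with exon 5, and 22, 93 and 157 beside 125, 154 and 208 without exon 5.

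The division itself was then set against input. No member of 22 differed in the use of the CDS relative to the 3′ UTR (diffSpliceDGE of edgeR, adjusted over all genes), against 6.42% of all genes, and 4 (18.2%) had an unadjusted p under 0.05, against 28.3% of all genes. The closest was Dhx37 (log2 difference 8.88, adjusted p = 0.0525), with 14, 58 and 113 CDS counts with exon 5, 11, 22 and 32 without exon 5 and 0 in the inputs. Its 3′ UTR had 10, 0 and 27 counts with exon 5, 0, 22 and 7 without exon 5, and 7, 9 and 0 in the inputs. Dhx36 (4.67, 0.0692) and Ddx19a (7.52, 0.0890) came next. In the inputs Ddx19a had 0 CDS counts and 0, 14 and 0 counts in the 3′ UTR. With a CDS at 0 in every input, the log2 differences of Dhx37 and Ddx19a are fitted values and not measured ratios. Leaving out input replicate 2 called Dhx36, and also Dhx30. Leaving out 1 of the libraries with exon 5, input replicate 1 or input replicate 3 called Ddx24. Neither Dhx30 nor Ddx24 was among the 22 members tested with all libraries. The median over members was -0.07, against 0.71 over all genes.

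**Figure D3:**
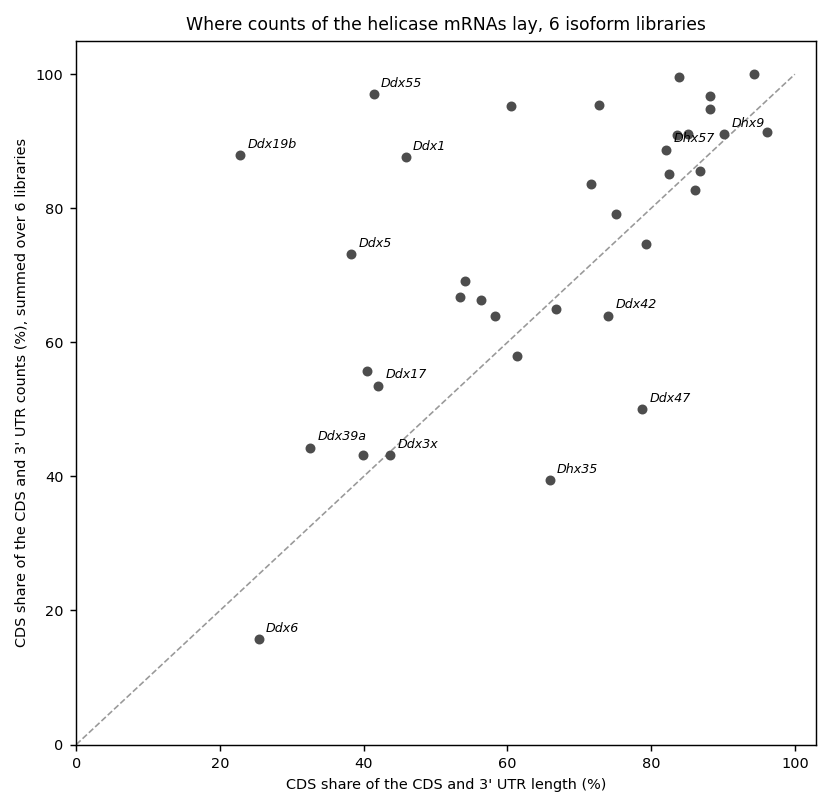
Share of each helicase gene's CDS and 3′ UTR counts that lay in the CDS (y axis, percent, summed over the 6 isoform libraries) against the CDS share of the summed length of both parts (x axis, percent), 1 point per gene with at least 100 counts. Points above the diagonal, 25 of 36, had more coding counts than length alone would give. Ddx5 lies at 38.3% of length and 73.2% of counts, and Dhx35 lies below the line.

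The 2 isoforms of Chtop were then compared directly. No helicase mRNA passed the test with exon 5 over without exon 5, and neither did any of the 8342 genes (0% called; edgeR's quasi-likelihood F-test), with 93 genes and 0 members at an unadjusted p under 0.05. limma-voom called 2 genes and edgeR without a filter on low counts 4, none of them a member. The median log2 difference was 0.01 over members and -0.03 over all genes. No member had all libraries with exon 5 above all without exon 5, against 6.49% of all genes. For 2 members, Ddx42 and Dhx35, all libraries with exon 5 were lower, against 7.43% of all genes.

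The intervals were wide. All 39 contained 0, and they reached between 0.87 and 3.85 log2 units to either side of the estimate, with a median of 2.43. Ddx5 was the only member whose interval stayed within 1 log2 unit on either side, at 0.05 (95% interval -0.82 to 0.92). Ddx17 differed by 0.17 (-1.01 to 1.34), Ddx46 by 0.06 (-1.75 to 1.87) and Dhx9 by 0.01 (-1.87 to 1.88). For every other member tested a 2-fold difference between the isoforms lies within the interval in at least 1 direction, so a difference of that size was not detectable at this depth and spread.

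Ddx42 had a log2 difference of -0.64 ± 0.92 (SE; 95% interval -2.61 to 1.32) and Dhx35 of -0.59 ± 1.00 (-2.73 to 1.54). Both adjusted p-values of the edgeR test were 1.00, as for every member. The highest values were those of Dhx37 (1.32 ± 1.19), Ddx24 (1.02), Ddx41 (0.93), a helicase of the late spliceosome, Dhx40 (0.74), little described, and Ddx51 (0.59), of ribosome biogenesis. Dhx37 had 35.2, 85.1 and 135 CPM with exon 5, 20.8, 53.2 and 28.0 CPM without exon 5, and 43.2, 50.4 and 0 CPM in the inputs, so the groups overlapped. The lowest were Ddx19b (-1.39 ± 1.34), which remodels mRNPs at the nuclear pore, Ddx52 (-0.95) and Ddx55 (-0.88) of ribosome biogenesis, Ddx39a (-0.81) and Ddx11 (-0.74). Ddx19b had 19.1, 20.5 and 71.2 CPM with exon 5, 92.6, 27.8 and 173 CPM without exon 5, and 0, 50.4 and 0 CPM in the inputs. All 3 export helicases had lower values with exon 5 than without exon 5, with summed means of 148 and 270 CPM, and none of these differences passed the test. The parts of the genes gave 0 members between the isoforms as well, in the CDS, the 3′ UTR, the 5′ UTR and the use of the CDS relative to the 3′ UTR.

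**Figure D4:**
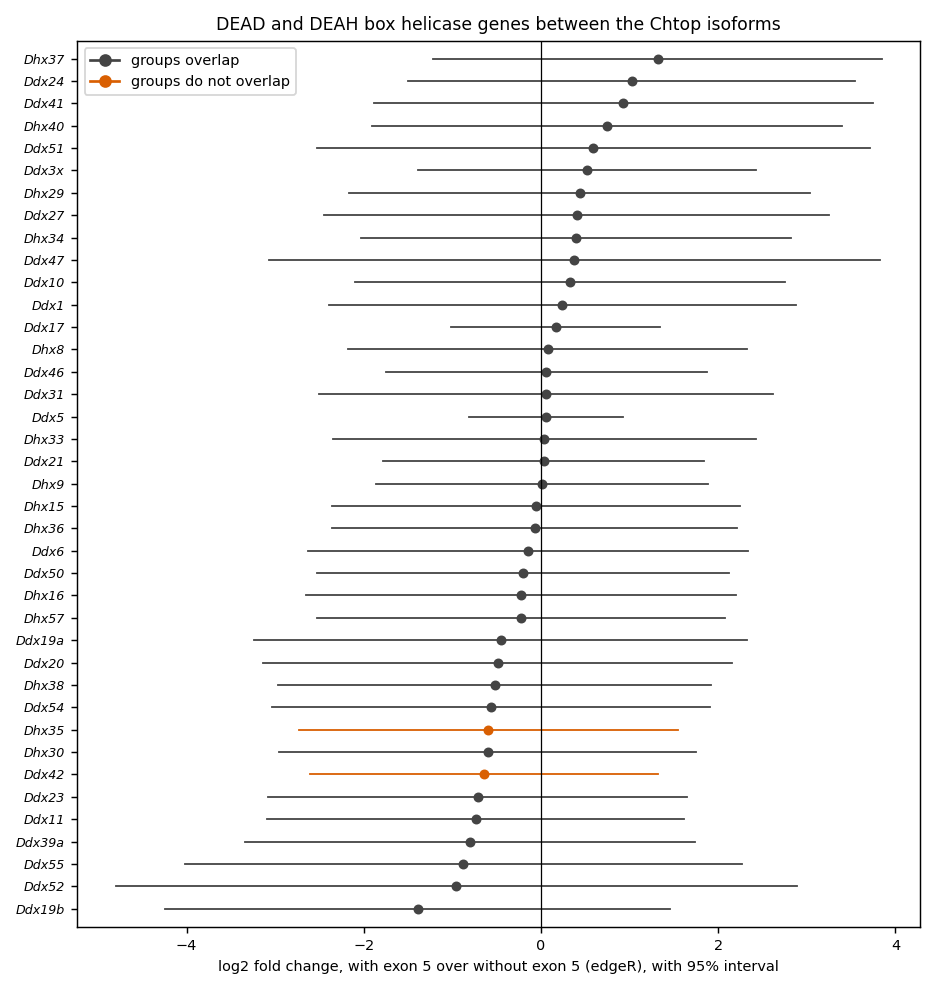
Log2 fold change with exon 5 over without exon 5 of the 39 tested helicase genes (points), with 95% intervals (bars), 1 row per gene. All intervals cross 0, that of Ddx5 (0.05) is the narrowest, and orange marks Dhx35 and Ddx42, whose libraries with exon 5 all lay below those without exon 5.

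The authors' deposited table sorts genes by isoform from the same libraries, so it is not independent of the values above. In the CDS, the authors' deposited table placed 31 of 36 listed helicase genes with both isoforms, where it placed 84.3% of all listed genes. It assigned Ddx24 (log2 fold change 1.21), Ddx51 (1.45) and Dhx37 (1.63) to the isoform with exon 5, a class holding 7.41% of all genes in the authors' deposited table. It assigned Ddx19a (-1.40) and Ddx19b (-1.47) to the isoform without exon 5, against 8.32% of all genes. In the 3′ UTR, the authors' deposited table placed 13 of 14 with both isoforms, where it placed 80.0% of all listed genes. It assigned Ddx39a (-1.27) to the isoform without exon 5, against 10.1% of all listed genes. By their column names, the authors' classes rest on a cutoff of the log2 fold change and on the same direction in all replicates. The column names give no p-value. None of these 6 genes passed the edgeR test between the isoforms, which is a different criterion.

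Genes that work with the family were read from the same fits. Of 24 RNA helicases with other names, 17 were found and 16 tested, of which 4 were higher than input with exon 5 (Snrnp200, Helz2, Ythdc2 and Znfx1) and 3 without exon 5 (Snrnp200, Ythdc2 and Znfx1). Snrnp200, the helicase that unwinds U4 from U6 in the spliceosome, averaged 210 ± 55.4 CPM with exon 5, 215 ± 26.4 CPM without exon 5 and 3.73 ± 6.47 CPM in the inputs, where it had 2 counts in all. Its pooled ratio was 48.3 (95% counting interval 13.3 to 400.0; adjusted p = 0.0187, edgeR) with exon 5 and 49.9 (13.8 to 413; adjusted p = 0.0185) without exon 5. Over all genes 8.31% were higher with exon 5 and 8.12% without exon 5, and 10.1% and 9.90% among genes with a symbol. G-patch proteins activate DEAH helicases, and of 19 tested 3 were higher with exon 5 (Gpatch2l, Son and Gpatch8) and 4 without exon 5 (these and Aggf1). Ythdc2, Gpatch2l and Aggf1 had 0 counts in every input, so they could only come out higher. MIF4G proteins activate DEAD helicases, and none of 10 tested was higher or lower with either isoform. The medians of the log2 difference to input were 2.30 with exon 5 and 1.87 without exon 5 for the other helicases, 2.41 and 2.60 for G-patch proteins and 0.78 and 1.06 for MIF4G proteins, beside 1.03 over all genes. These are medians of fitted values. They take in genes at 0 in every input, such as Ythdc2, Ighmbp2, Supv3l1, Gpatch2l and Aggf1, whose values are not measured ratios. With such genes at their bound the median of all genes was 0.70 with exon 5 and 0.72 without exon 5. The lists' medians at the bound are not given, so a difference of the lists from all genes was not tested. No gene of these lists passed the test between the isoforms.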

How the data were processed

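FLAG-Chtop iCLIP libraries with and without exon 5 and size-matched inputs (3 each) were analysed. For every gene the authors deposited raw counts of the 5′ UTR, CDS, 3′ UTR and total, per the file headers, with part lengths and a table of log2 fold changes and classes between isoforms. The submitters' processing notes name mm10, TopHat2 and DESeq2; read counting, strand use and the collapsing of duplicates by random primer bases are steps not given in the sources used here. Antisense overlaps therefore cannot be told apart. In all, 27 columns of per-sample values were not used.

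Members and gene lists were chosen with earlier results of these data known. Named are members past the threshold, the 12 highest by mean CPM and the 5 highest and 5 lowest log2 fold changes per comparison of gene totals, and other examples were picked after their values were seen. All 9 libraries entered 1 fit of edgeR 4.0.16 (R 4.3.3; quasi-likelihood F-test, robust, TMM; filterByExpr, minimum count 10, minimum total 15), with Benjamini-Hochberg adjustment over all genes at 0.05; CDS against 3′ UTR use was tested with diffSpliceDGE. Totals lay between 75504 and 1844970 counts per library. Alternatives used limma 3.58.1, DESeq2 1.42.0, other scalings and filters, a loess length correction (span 0.5), a replicate block and each library left out. The code was tested on simulated data. Input columns were matched to samples by line and primer, since their replicate numbers differ from those in the titles.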

Additional observations from a re-analysis of the deposited data

How the results depend on the processing

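Counts of members past the threshold over input changed with several settings, and the cause was not tested. For gene totals, where 7 members passed with exon 5 and 6 without exon 5, the count was 1 for each isoform with library size alone, with DESeq2 size factors, with the length trend removed, with the replicate block and with the replicate block using the input numbers of the column headers (a setting chosen after seeing the data), and 0 when only the groups compared were fitted. Leaving out 1 library gave 0 to 17 members with exon 5 and 0 to 18 without exon 5. All genes called with exon 5 numbered 765, against 390 with library size alone, 447 with DESeq2 size factors, 346 with the length trend removed, 273 with the replicate block and 29 when only the groups compared were fitted. For the CDS (9 members) the count was 1 with library size alone and 3 with either replicate block, and 1 to 21 with 1 library left out. For the 3′ UTR (5 members) it was 1 with library size alone, 0 with the totals and factors of the gene totals, 2 with either replicate block, and 0 to 10 with 1 library left out. For the CDS relative to the 3′ UTR (0 members) it was 1 with library size alone and 0 to 2 with 1 library left out. Between the isoforms, correlations of deviations were -0.0012, 0.031 and 0.039 for same-numbered libraries and -0.046 to 0.017 for differently numbered ones. All were small, which does not exclude a pairing. The main fit did not pair the samples. All comparisons between the isoforms gave 0 members under every alternative run. Ddx17 with exon 5 changed sign, to -0.11, with the length trend removed. For the members named by rule (threshold, mean CPM or fold change), not for every member, 2100 values were recomputed under the alternatives. Of 449 called values 264 lost their call in the same direction and 1 changed sign. Of the uncalled ones 37 gained a call and 132 changed sign. At a minimum count of 20 no member was tested in the 5′ UTR. The inputs, at 75504 to 173342 counts, limit what can be said of members under 16.8 to 21.7 CPM there.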
